A study of Mus musculus with 13 samples.

Results

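The RNA levels of 10 genes of the Notch pathway were examined in thymic lymphomas of 2 mouse models and in wild type (WT) thymus. The genes were taken by name from the 43629 genes of the deposited table. They are 3 receptors (Notch1, Notch2 and Notch3), 6 genes known as direct targets of Notch signaling (Hes1, Hes5, Heyl, Dtx1, Nrarp and Ptcra) and Fbxw7, a negative regulator of the activated receptor. All 10 passed the filter on low values, 10 or more normalized counts in 3 or more libraries, which left 15872 genes to test.

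Polyadenylated RNA of 13 single-cell suspensions had been sequenced on stranded libraries. The Atm-/- group held lymphomas of 5 different 129S6/SvEv mice lacking ATM, the kinase that responds to DNA breaks. The Rag2c/c p53-/- group held lymphomas of 5 different mice whose background mixes C57BL/6 with 129S6/SvEv. These mice lack p53 and carry core RAG2, a V(D)J recombination protein shortened at its C terminus. The WT group held thymuses of 3 C57BL/6 mice, sequenced for another series and re-used. No age is given in the labels of these groups. Strain and series go with the genotype, so their effects cannot be told apart from it. Xist was read in the 3 WT thymuses and in Atm-/- lymphomas 1 to 3, and was at 3 or less in the other 7 lymphomas, so sex was also unequal between the groups.

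Values are normalized counts, scaled between libraries by the authors and rounded to whole numbers. By the steps between low values, 11 libraries held 6.36 to 24.8 M counted reads, and WT thymuses 1 and 3 held at least 19.8 and 20.3 M. A single read was worth 3.23 in WT thymus 2 and 3.38 in Rag2c/c p53-/- lymphoma 2, the shallowest libraries. Markers of T cells (Cd3d, Cd3e, Cd3g, Lck, Lat, Zap70, Cd2 and Thy1) were read in every library, with summed levels of 77005 to 121715 in WT thymus, 72682 to 136425 in Atm-/- lymphomas and 66834 to 137203 in Rag2c/c p53-/- lymphomas, and none of the 8 was called between a lymphoma group and WT thymus. Atm itself lay between 208 and 732 in Atm-/- lymphomas, against 1559 to 2274 in WT thymus. Trp53 lay between 2018 and 5461 in Rag2c/c p53-/- lymphomas, against 4387 to 6341 in WT thymus. Which part of Trp53 was deleted is not given in the labels, and core RAG2 is shortened rather than absent. The gene levels of Trp53 and Rag2 thus do not check the genotype.

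Notch receptors are single-pass membrane proteins that are cut when a ligand on a neighbouring cell binds them. The intracellular part then enters the nucleus and joins the DNA-binding protein RBPJ and a Mastermind-like coactivator to switch on targets. In the thymus NOTCH1 commits progenitors to the T lineage and drives them up to the checkpoint for a rearranged T cell receptor beta chain, and the pathway is known for activating lesions in T cell leukemia and lymphoma. Among its targets, Hes1, Hes5 and Heyl encode transcriptional repressors of the hairy/enhancer-of-split family. Dtx1 encodes the ubiquitin ligase Deltex1, Nrarp a small ankyrin-repeat protein that dampens the Notch complex, and Ptcra the pre-T cell receptor alpha chain of immature thymocytes.

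RBPJ is known to bind the letters TGGGAA, most often within GTGGGAA. Promoter windows of RefSeq (build GRCm38.p6), the 250 bases before a transcription start, were found for 8 of the 10 genes. No window was found for Hes1 or Heyl, so their promoters were not searched. TGGGAA was searched on both strands and was held by the windows of 2 of these 8, Hes5 and Ptcra, and by 21.6% of all 32851 windows. GTGGGAA, which contains the shorter motif, was held by the Hes5 window and by 5.42% of all windows. The windows of Hes5 (chr4:154960673-154960922, plus strand) and Ptcra (chr17:46763713-46763962, minus strand) are printed because they hold the motif, with TGGGAA or its reverse complement in capitals.
Hes5: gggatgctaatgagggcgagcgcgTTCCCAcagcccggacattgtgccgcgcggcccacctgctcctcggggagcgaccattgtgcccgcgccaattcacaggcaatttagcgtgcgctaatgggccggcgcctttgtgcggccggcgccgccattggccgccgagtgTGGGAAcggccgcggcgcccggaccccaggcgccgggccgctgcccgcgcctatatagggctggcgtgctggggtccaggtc
Ptcra: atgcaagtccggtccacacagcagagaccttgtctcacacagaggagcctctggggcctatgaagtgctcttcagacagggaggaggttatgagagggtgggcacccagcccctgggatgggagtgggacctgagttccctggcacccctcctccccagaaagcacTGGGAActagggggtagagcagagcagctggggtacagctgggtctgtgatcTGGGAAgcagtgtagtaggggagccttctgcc
The Hes5 window holds 1 match on each strand, which begin 226 and 82 bases before the start. The Ptcra window holds 2 matches on the strand of the gene, beginning 84 and 32 bases before the start. A match is a run of letters in this window and no measure of binding, and distal sites such as enhancers were not searched.

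Heyl was the target that rose in both lymphoma models, and Notch2 was the receptor that fell in both. A gene was called at a Benjamini-Hochberg adjusted p under 0.05 by limma over all tested genes, with a difference of at least 1 on the log2(value + 1) scale and a mean of at least 10 in either group. In Atm-/- lymphomas against WT thymus, 2 of the 10 genes were called, beside 29.5% of all tested genes. Heyl was higher, as were 12.6% of tested genes, and Notch2 was lower, as were 17.0%. In Rag2c/c p53-/- lymphomas against WT thymus, 3 of the 10 genes were called, beside 23.6% of all tested genes. Heyl was higher, as were 9.77% of tested genes, and Notch2 and Hes5 were lower, as were 13.9%. The 2 comparisons share the 3 WT thymuses. Between the lymphoma models 0 of the 10 genes were called by limma, the only tool run, beside 7.84% of tested genes (3.51% higher and 4.33% lower in Atm-/- lymphomas), and 1 of them, Hes5, had an unadjusted p under 0.05. This count became 1 without Atm-/- lymphoma 3 (Heyl, adjusted p = 0.0427) or without Rag2c/c p53-/- lymphoma 3 (Hes5, adjusted p = 0.0303). The share of called genes among the 10 was thus close to that of all tested genes in each comparison with WT thymus.

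The levels of the 2 groups did not overlap for 3 of the 10 genes in Atm-/- lymphomas against WT thymus (Notch2, Heyl and Fbxw7), as for 51.3% of tested genes. They did not overlap for 4 in Rag2c/c p53-/- lymphomas against WT thymus (the same 3 and Notch1), as for 43.9% of tested genes. Between the lymphoma models the levels of all 10 genes overlapped, whereas those of 8.33% of tested genes did not.

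**Figure D1:**
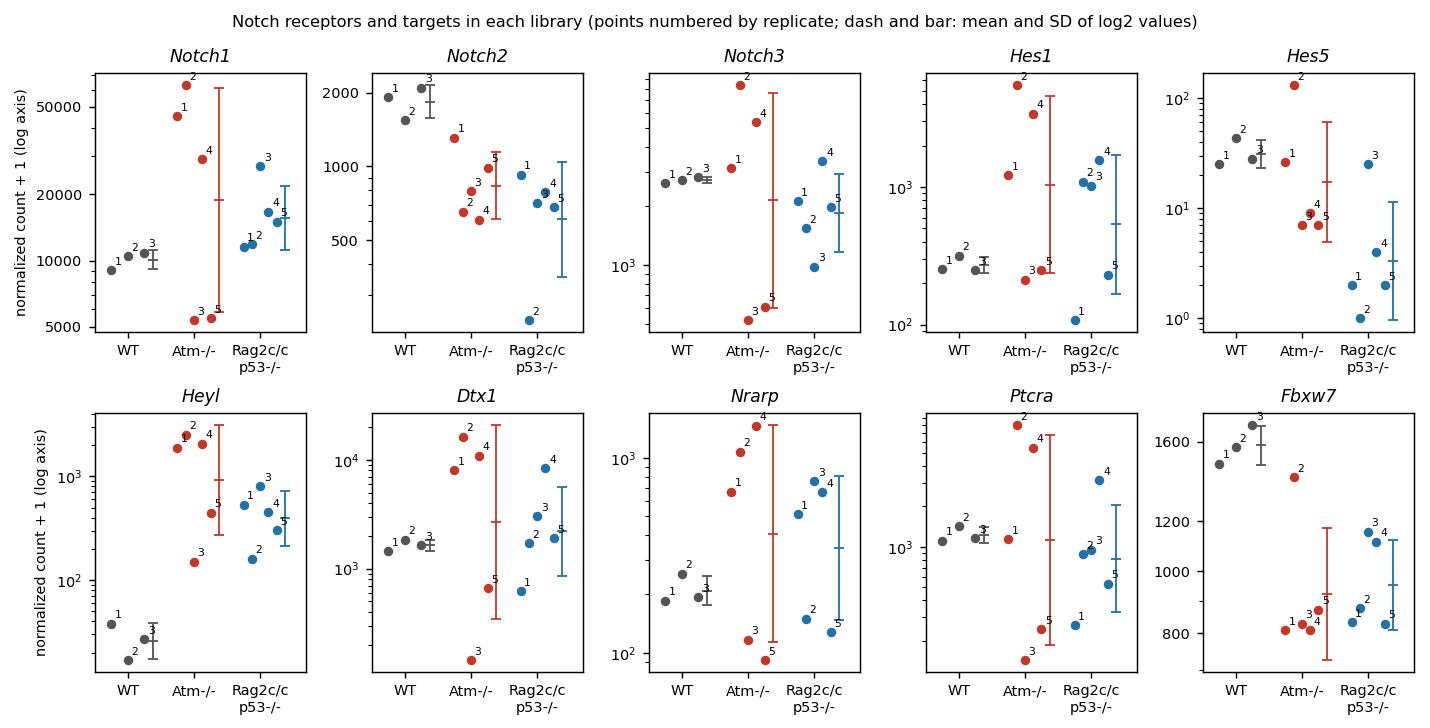
Normalized count plus 1 of each of the 10 genes (y axis, log scale) in the 3 WT thymuses, 5 Atm-/- lymphomas and 5 Rag2c/c p53-/- lymphomas; each point is a library, numbered by replicate, and the dash and bar give the mean and SD of the log2 values. Notch2 and Fbxw7 lie lower in all 10 lymphomas than in the 3 thymuses and Heyl lies higher, while Notch1, Notch3, Hes1, Dtx1, Nrarp and Ptcra of Atm-/- lymphomas 1, 2 and 4 lie above those of Atm-/- lymphomas 3 and 5.

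Notch1 (ENSMUSG00000026923, GRCm38 chromosome 2 from 26457903 to 26516663, minus strand) encodes the main Notch receptor of thymocytes. Its normalized counts were 9029, 10454 and 10854 in WT thymuses 1 to 3. In Atm-/- lymphomas 1 to 5 they were 45260, 62925, 5365, 28906 and 5481. Of this group 3 libraries thus lay above every WT thymus and 2 below every WT thymus. Counts in Rag2c/c p53-/- lymphomas 1 to 5 were 11569, 11902, 26815, 16700 and 15039, all above the WT range. The log2 difference from WT thymus was 0.91 ± 0.70 (SE) in Atm-/- lymphomas (adjusted p = 0.307) and 0.63 ± 0.70 in Rag2c/c p53-/- lymphomas (adjusted p = 0.505), and neither was called. With the Rag2c/c p53-/- lymphomas and WT thymuses fitted alone, the adjusted p was 0.0843. A two-sided exact permutation test of these 5 against 3 libraries gave p = 0.0357, the smallest p it can give. In bulk RNA, fewer cells expressing a gene and less RNA per cell cannot be told apart. The noncoding gene 0610009E02Rik overlaps the 3' end of Notch1 on the opposite strand, and had a mean of 36.8 and a highest value of 162 over the 13 libraries.

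Notch2 (ENSMUSG00000027878, chromosome 3 from 98013538 to 98150367, plus strand) encodes a receptor known in the mouse for its role in marginal zone B cells. Its counts were 1909, 1543 and 2096 in WT thymus. They were 1309, 653, 794, 605 and 988 in Atm-/- lymphomas 1 to 5 and 924, 236, 708, 783 and 682 in Rag2c/c p53-/- lymphomas 1 to 5. Every lymphoma lay below every thymus. Notch2 fell in both models, with log2 differences of -1.13 ± 0.38 (SE, adjusted p = 0.0265) in Atm-/- lymphomas and -1.59 ± 0.38 (adjusted p = 0.00547) in Rag2c/c p53-/- lymphomas. The call in Atm-/- lymphomas was lost without WT thymus 1 (adjusted p = 0.0805), WT thymus 3 (adjusted p = 0.098) or Atm-/- lymphoma 4 (adjusted p = 0.0561). B cell markers were also lower in the lymphomas than in WT thymus. The summed level of Cd79a, Cd79b, Ms4a1, Pax5 and Cd22 was 1261 to 1637 in WT thymus, 261 to 304 in Atm-/- lymphomas and 156 to 449 in Rag2c/c p53-/- lymphomas. Of the 5 genes 3 and 4 fell, beside 17.0% and 13.9% of all tested genes. Among the lymphomas, Rag2c/c p53-/- lymphoma 2, lowest in Notch2, had the highest sum, 449. Atm-/- lymphoma 1, highest in Notch2, had a sum of 272. The part of B cells in the Notch2 level was not tested.

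Notch3 (ENSMUSG00000038146, chromosome 17 from 32120820 to 32166880, minus strand) encodes a receptor of immature thymocytes and of vascular smooth muscle. Its counts were 2617, 2722 and 2820 in WT thymus, the narrowest spread of the 10 genes there. They were 3123, 8344, 521, 5396 and 608 in Atm-/- lymphomas 1 to 5, with the same libraries high and low as for Notch1. In Rag2c/c p53-/- lymphomas 1 to 5 they were 2115, 1540, 976, 3392 and 1977, with lymphoma 4 above and the other four below the WT range. The log2 differences from WT thymus were -0.35 ± 0.77 (SE, adjusted p = 0.736) and -0.56 ± 0.77 (adjusted p = 0.596), and neither was called.

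The balance of the receptors was taken as a ratio within each library, which does not depend on scaling, and that of Notch3 to Notch1 was lower in every lymphoma than in every thymus. The log2 ratio of Notch3 to Notch1 was -1.94 to -1.79 in WT thymus, -3.86 to -2.42 in Atm-/- lymphomas and -4.78 to -2.30 in Rag2c/c p53-/- lymphomas. The mean difference from WT thymus was -1.25 and -1.19, each with a two-sided exact permutation p of 0.0357, the smallest possible, and an adjusted p of 0.0536 over the 3 comparisons. The log2 ratio of Notch2 to Notch1 was -2.76 to -2.24 in WT thymus, -6.59 to -2.47 in Atm-/- lymphomas and -5.65 to -3.65 in Rag2c/c p53-/- lymphomas. Its exact permutation p against WT thymus was 0.107 and 0.0357 (adjusted 0.161 and 0.107). Between the lymphoma models the mean ratios differed by -0.06 (Notch3) and 0.18 (Notch2), with exact permutation p of 0.929 and 0.825. A ratio shows unequal change of 2 genes and not which of them moved.

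Heyl (ENSMUSG00000032744, chromosome 4 from 123233556 to 123249875, plus strand) had the largest differences of the 10 genes from WT thymus in both models. Its counts were 37, 16 and 26 in WT thymus. They were 1885, 2519, 150, 2070 and 447 in Atm-/- lymphomas 1 to 5 and 534, 159, 799, 449 and 303 in Rag2c/c p53-/- lymphomas 1 to 5. The lowest lymphoma of each model lay above the highest thymus. Heyl rose by 5.15 ± 0.81 (SE) on the log2 scale in Atm-/- lymphomas, 35.6-fold (adjusted p = 0.00028), and by 3.92 ± 0.81 in Rag2c/c p53-/- lymphomas, 15.2-fold (adjusted p = 0.00238). Without Atm-/- lymphoma 3 the difference in Atm-/- lymphomas was 5.80. Both calls held without any library in turn, with adjusted p up to 0.00277 and 0.0164. The models differed from each other by 1.23 (95% interval -0.28 to 2.74, adjusted p = 0.293).

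HEYL is also known as a NOTCH3 target in mural cells of vessels. The summed levels of pericyte and smooth muscle genes and of fibroblast genes were higher in every lymphoma than in every thymus. The summed level of the pericyte and smooth muscle genes Pdgfrb, Rgs5, Cspg4, Acta2, Myh11 and Tagln was 341 to 413 in WT thymus, 709 to 3559 in Atm-/- lymphomas and 1235 to 3212 in Rag2c/c p53-/- lymphomas. Of the 5 tested genes of this list, 1, Pdgfrb, rose in each model (log2 differences of 2.998 and 2.65), Rgs5 gave -2.08 and -1.75 without being called, and Cspg4, a defining pericyte marker, was at 3 or less in all but Atm-/- lymphoma 4, where it was 17. Atm-/- lymphoma 2, with the highest Heyl count, had the lowest sum of this list among the 10 lymphomas. Fibroblast genes (Col1a1, Col1a2, Col3a1, Sparc, Pdgfra and Dcn) summed to 204 to 218 in WT thymus, 3783 to 18172 in Atm-/- lymphomas and 642 to 2336 in Rag2c/c p53-/- lymphomas, and 5 and 4 of the 6 rose. Of all tested genes, 12.6% rose in Atm-/- lymphomas and 9.77% in Rag2c/c p53-/- lymphomas. The part of stromal cells in the Heyl level was not tested.

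Hes5 (ENSMUSG00000048001, chromosome 4 from 154960923 to 154962371, plus strand) was a scarce RNA. Its counts were 24, 42 and 27 in WT thymus, 25, 130, 6, 8 and 6 in Atm-/- lymphomas 1 to 5 and 1, 0, 24, 3 and 1 in Rag2c/c p53-/- lymphomas 1 to 5. In the Rag2c/c p53-/- model 4 lymphomas lay under the worth of 3 reads (2.43 to 10.1 normalized counts in those libraries), while lymphoma 3 equalled the lowest thymus. Hes5 fell by 3.23 ± 1.07 (SE) on the log2(value + 1) scale in Rag2c/c p53-/- lymphomas (adjusted p = 0.0294), a size that depends on the added 1 at such low counts. Without Rag2c/c p53-/- lymphoma 3 the difference was -3.96. The call was lost without WT thymus 1, 2 or 3, or without Rag2c/c p53-/- lymphoma 1, 2 or 5 (adjusted p of 0.0513 to 0.098), and without both shallowest libraries (adjusted p = 0.156). In Atm-/- lymphomas the difference from WT thymus was -0.86 ± 1.07 (adjusted p = 0.532), and the models differed from each other by 2.38 (95% interval 0.39 to 4.36, adjusted p = 0.117).

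Hes1 (ENSMUSG00000022528, chromosome 16 from 30064384 to 30067796, plus strand) encodes the repressor through which Notch supports early thymocyte survival. Its counts were 251, 315 and 247 in WT thymus. They were 1221, 5520, 211, 3418 and 248 in Atm-/- lymphomas 1 to 5 and 107, 1094, 1024, 1569 and 229 in Rag2c/c p53-/- lymphomas 1 to 5. In each model 3 lymphomas exceeded the highest thymus and the other 2 lay within or below the thymus range. The log2 differences from WT thymus, 1.94 ± 1.08 (SE, adjusted p = 0.157) and 0.98 ± 1.08 (adjusted p = 0.498), were not called.

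Dtx1 (ENSMUSG00000029603, chromosome 5 from 120680202 to 120711927, minus strand) varied most among the Atm-/- lymphomas. Its counts were 1451, 1852 and 1634 in WT thymus, 8025, 16369, 144, 10894 and 664 in Atm-/- lymphomas 1 to 5 and 616, 1722, 3031, 8378 and 1907 in Rag2c/c p53-/- lymphomas 1 to 5. The highest Atm-/- lymphoma had 114-fold the count of the lowest. The log2 differences from WT thymus were 0.71 ± 1.30 (SE, adjusted p = 0.677) and 0.43 ± 1.30 (adjusted p = 0.819).

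Ptcra (ENSMUSG00000036858, chromosome 17 from 46755663 to 46763712, minus strand), whose promoter window is printed above, followed a like order. Its counts were 1107, 1420 and 1153 in WT thymus, 1134, 8050, 143, 5456 and 243 in Atm-/- lymphomas 1 to 5 and 259, 878, 947, 3120 and 531 in Rag2c/c p53-/- lymphomas 1 to 5. Only lymphomas 2 and 4 of the Atm-/- model and lymphoma 4 of the Rag2c/c p53-/- model exceeded the thymus range. The log2 differences from WT thymus were -0.13 ± 1.16 (SE, adjusted p = 0.939) and -0.58 ± 1.16 (adjusted p = 0.718).

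Nrarp (ENSMUSG00000078202, chromosome 2 from 25180758 to 25183339, plus strand) is a feedback inhibitor that lies on the same chromosome as Notch1. Its counts were 184, 253 and 192 in WT thymus, 669, 1073, 116, 1461 and 91 in Atm-/- lymphomas 1 to 5 and 511, 149, 756, 663 and 127 in Rag2c/c p53-/- lymphomas 1 to 5. No lymphoma lay within the thymus range, with 3 above and 2 below in each model. The log2 differences from WT thymus were 0.97 ± 0.89 (SE, adjusted p = 0.392) and 0.73 ± 0.89 (adjusted p = 0.546).

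Fbxw7 (ENSMUSG00000028086, chromosome 3 from 84815268 to 84979198, plus strand) encodes the F-box protein that hands the cleaved Notch receptors and MYC to a ubiquitin ligase. Its counts were 1476, 1566 and 1698 in WT thymus. They were 808, 1404, 827, 808 and 869 in Atm-/- lymphomas 1 to 5 and 831, 875, 1154, 1112 and 827 in Rag2c/c p53-/- lymphomas 1 to 5. All 10 lymphomas lay below the 3 thymuses, with Atm-/- lymphoma 2 nearest to them. The log2 differences, -0.78 ± 0.20 (SE, adjusted p = 0.00662) and -0.73 ± 0.20 (adjusted p = 0.0113), passed limma's adjusted p but not the threshold of 1 on the log2 scale, so Fbxw7 was not called. The models differed from each other by -0.05 (95% interval -0.42 to 0.32, adjusted p = 0.902).

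**Figure D2:**
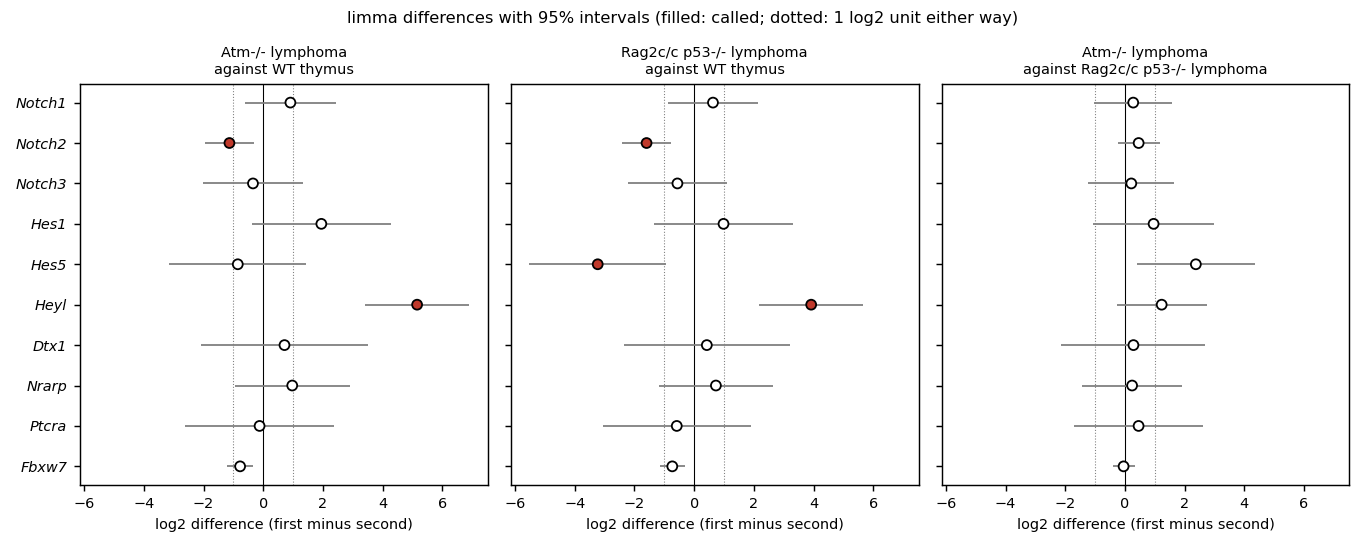
Log2 difference of each of the 10 genes (points; bars, 95% intervals of limma) in the 3 comparisons, on the log2(value + 1) scale, first group minus second; filled points were called and dotted lines mark 1 log2 unit either way. Heyl lies far to the right of 0 in both comparisons with WT thymus and Notch2 to the left, Fbxw7 has the narrowest intervals, and no point is filled between the lymphoma models.

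Per kilobase of exon, which allows levels of different genes to be compared, Ptcra and Notch1 led in every group. In WT thymus the normalized count per kilobase was 956 ± 132 for Ptcra, 711 ± 67.4 for Notch1, 336 ± 12.6 for Notch3, 312 ± 38.1 for Dtx1, 224 ± 15.9 for Fbxw7, 172 ± 26.1 for Notch2, 133 ± 18.7 for Hes1, 81.2 ± 14.6 for Nrarp, 22.7 ± 7.08 for Hes5 and 5.15 ± 2.05 for Heyl (SD, n = 3). In that order the neighbours Notch3 and Dtx1, and Notch2 and Hes1, differed by less than the sum of their SDs. In Atm-/- lymphomas the order was Ptcra at 2342 ± 2777 per kilobase, Notch1 at 2079 ± 1765, Dtx1 at 1370 ± 1311, Hes1 at 1043 ± 1130, Notch3 at 445 ± 412, Heyl at 277 ± 205, Nrarp at 264 ± 232, Fbxw7 at 134 ± 36.7, Notch2 at 80.7 ± 26.6 and Hes5 at 25.7 ± 39.4 (SD, n = 5). Heyl, the lowest of the 10 in thymus, stood next to Nrarp there. In Rag2c/c p53-/- lymphomas it was Notch1 at 1153 ± 436, Ptcra at 894 ± 886, Dtx1 at 594 ± 580, Hes1 at 395 ± 304, Notch3 at 247 ± 111, Nrarp at 171 ± 112, Fbxw7 at 136 ± 22.7, Heyl at 87.8 ± 47.4, Notch2 at 61.8 ± 24.0 and Hes5 at 4.26 ± 7.51 (SD, n = 5). No neighbours in the lymphoma orders differed by more than the sum of their SDs except Notch2 and Hes5 in Rag2c/c p53-/- lymphomas.

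The spread between lymphomas of a model was the main feature of most of the targets. The SD of log2(value + 1) had a median of 1.82 over the 10 genes among Atm-/- lymphomas, against 0.44 over all tested genes. Among Rag2c/c p53-/- lymphomas these medians were 1.05 and 0.49, and among WT thymuses 0.19 and 0.16. Dtx1 had an SD of 2.96 among Atm-/- lymphomas, larger than that of 99.3% of tested genes, and Ptcra one of 2.59 (98.8%). Notch1 had an SD of 1.69 there (94.5% of tested genes below it) but 0.49 among Rag2c/c p53-/- lymphomas (49.7%). Notch2 and Fbxw7 were the exceptions, with SDs of 0.45 and 0.34 among Atm-/- lymphomas.

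The same libraries stood high for most genes. In the Atm-/- model lymphomas 1, 2 and 4 had the 3 highest counts of Notch1, Notch3 and all 6 targets, and lymphomas 3 and 5 the 2 lowest. Notch2 and Fbxw7 did not share this order. For Hes5 it is not resolved between lymphoma 4, at 8, and lymphomas 3 and 5, at 6 each, where a read was worth 0.99 to 1.88. In the Rag2c/c p53-/- model lymphoma 3 was highest for Notch1, Hes5, Heyl and Nrarp, and lymphoma 4 for Notch3, Hes1, Dtx1 and Ptcra. Il2ra, the interleukin 2 receptor alpha chain of immature thymocytes and a reported Notch target, was looked at after its values had been seen. Its counts were 3375 to 3662 in WT thymus, 4204, 17248, 50, 9640 and 93 in Atm-/- lymphomas 1 to 5 and 234, 138, 1023, 521 and 19 in Rag2c/c p53-/- lymphomas 1 to 5, with the same Atm-/- lymphomas high.

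**Figure D3:**
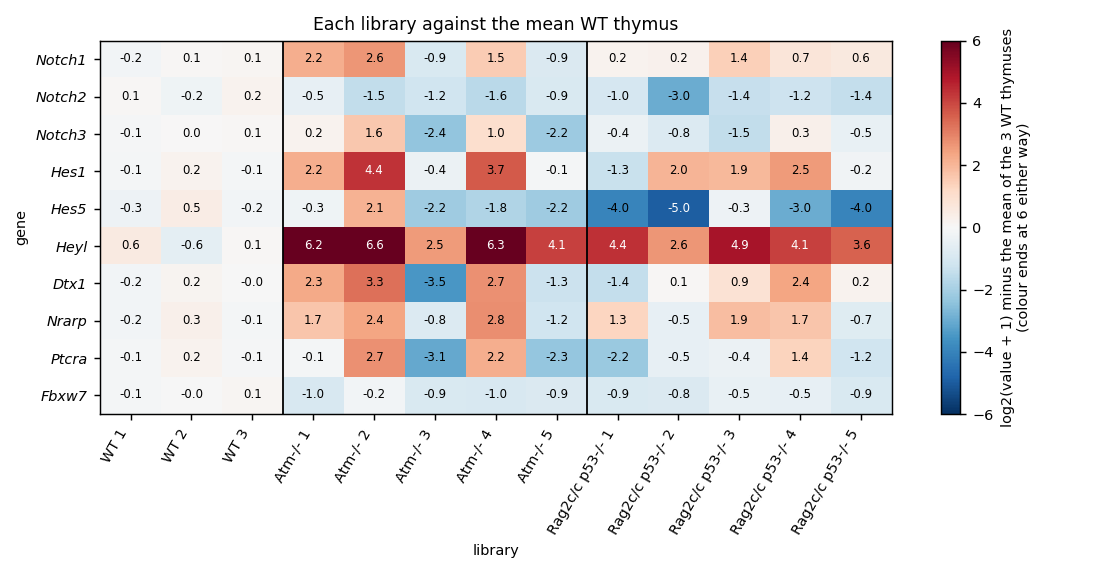
Difference of log2(value + 1) of each gene (rows) in each library (columns) from the mean of the 3 WT thymuses; red is higher, blue lower, and the number in each cell is the difference. Heyl is above 2 in every lymphoma, Notch2 and Fbxw7 are below 0 in every lymphoma, and Notch1, Notch3, Hes1, Dtx1, Nrarp and Ptcra are lower in Atm-/- lymphomas 3 and 5 than in Atm-/- lymphomas 1, 2 and 4.

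Whether lymphomas with more receptor RNA also had more target RNA was tested over the 10 lymphomas, with each gene centred on the mean of its model. After centring, Notch1 of Atm-/- lymphomas 3 and 5 lay at -1.82 and -1.79 on the log2 scale, apart from the other 8 lymphomas, which lay between -0.43 and 1.73. The same pair was lowest for centred Notch3. Over all 10 lymphomas 2 of 18 pairs of a receptor and a target, Notch1 with Heyl and Notch1 with Hes5, passed an adjusted p under 0.05 by two-sided exact permutation of Pearson's r within models, and 0 passed by Spearman's rho. Hes5 lay under the worth of 3 reads in Rag2c/c p53-/- lymphomas 1, 2, 4 and 5. Since 2 lymphomas stood apart in Notch1 and were lowest in Notch3, no r of Notch1 or Notch3 over the 10 is given.

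Among the other 8 lymphomas, an alternative chosen after seeing the data, 0 of the 18 pairs passed after adjustment by either measure. Fewer lymphomas also leave fewer permutations, so this does not show which lymphomas the relations over all 10 rest on. Over these 8 the r of Notch1 was 0.96 with Hes5 (exact permutation p = 0.00556, adjusted p = 0.10, Spearman rho = 0.96 with exact permutation p = 0.00556). Hes5 counts were 1, 0, 3 and 1 in Rag2c/c p53-/- lymphomas 1, 2, 4 and 5, under the worth of 3 reads, so their order is not resolved. The r of Notch1 lay between 0.29 and 0.57 with the other 5 targets, with 0.57 for Heyl (exact permutation p = 0.15). That of Notch3 lay between -0.09 and 0.56 and that of Notch2 between -0.53 and 0.66. In the Rag2c/c p53-/- model the lymphoma lowest in Notch3, lymphoma 3, was highest in Hes5, Heyl and Nrarp. The number of pairs that passed over the remaining 9 was 0 without any of the Atm-/- lymphomas, or without Rag2c/c p53-/- lymphoma 2 or 5. It was 4 without Rag2c/c p53-/- lymphoma 1 and 5 without Rag2c/c p53-/- lymphoma 3. With 5 lymphomas a model, no correlation within a model was tested.

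**Figure D4:**
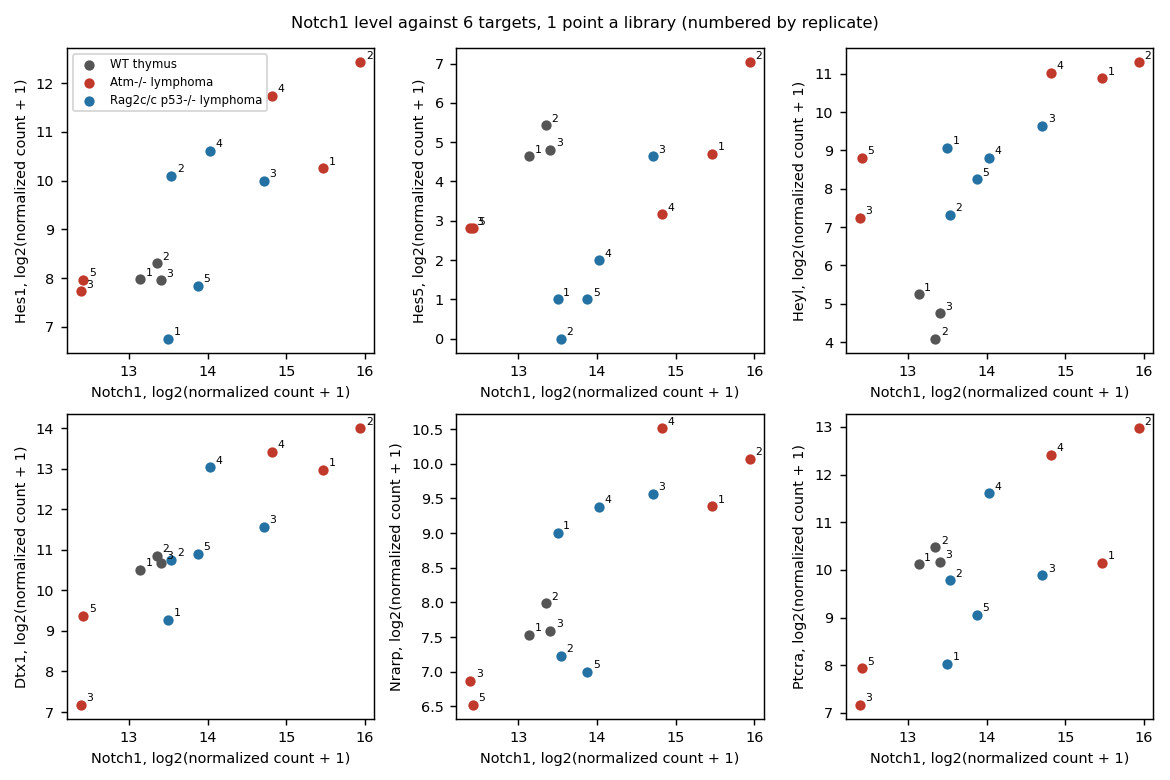
Level of 6 targets (y axes) against that of Notch1 (x axes), both as log2(normalized count + 1), in the 13 libraries, numbered by replicate. Atm-/- lymphomas 3 and 5 lie at the left and Atm-/- lymphomas 1, 2 and 4 at the right of every panel, and the Heyl panel shows the WT thymuses below all lymphomas.

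The genes whose levels followed Notch1 most closely, by Pearson's r of log2(value + 1) centred on group means over the 13 libraries, were Egfem1 (r = 0.985), Gabbr2, a GABA-B receptor subunit (0.96), and Nhsl1 (0.95). Egfem1 was listed at 0 in every WT thymus, at 5 to 215 in Atm-/- lymphomas and at 0 to 2 in Rag2c/c p53-/- lymphomas, so its likeness rests on the Atm-/- model. For Notch3 they were Thnsl2 (0.96), the tetraspanin gene Tspan13 (0.96) and Scn2b, a sodium channel subunit (0.95). For Hes1 they were Cd7, a T cell surface protein (0.97), Grasp (0.97) and Gm12253 (0.96). Of the 10 genes, the nearest to Notch1 was Dtx1 at rank 35 (0.89), and the nearest to Notch3 was Ptcra at rank 38 (0.87). Ptcra was also the nearest to Hes1, at rank 6 (0.95). Gabbr2 was scarce, at 10 to 12 in WT thymus, 4 to 31 in Atm-/- lymphomas and 24 to 50 in Rag2c/c p53-/- lymphomas. All these points share the libraries and their scaling and include Atm-/- lymphomas 3 and 5, which stand apart, and the values are given as a description.

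Other genes of the pathway were taken from 6 lists of 70 genes in all, of which 66 were tested. In Atm-/- lymphomas against WT thymus 17 of the 66 were called (25.8%), 15 lower and 2 higher, with a median log2 difference of -0.24 beside -0.02 over all tested genes. In Rag2c/c p53-/- lymphomas against WT thymus 10 were called (15.2%), 7 lower and 3 higher, with a median of -0.20 beside -0.02. Between the models 4 were called (6.06%). Each share, which pools both directions, was below that of all tested genes. Of all tested genes, 17.0% were lower and 12.6% higher in Atm-/- lymphomas, and 13.9% and 9.77% in Rag2c/c p53-/- lymphomas. In Atm-/- lymphomas the 15 lower genes of the 66 were thus a larger share than among all tested genes. The 2 higher genes were a smaller share. In Rag2c/c p53-/- lymphomas the share was smaller in either direction. Without WT thymus 3 the number called in Atm-/- lymphomas against WT thymus was 11.

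Among ligands, 4 of 7 genes were tested, and Jag2 was called in Rag2c/c p53-/- lymphomas. Its counts were 166 to 202 in WT thymus and 598 to 2027 in Rag2c/c p53-/- lymphomas, a rise of 2.54 ± 0.64 (SE) on the log2 scale (adjusted p = 0.00765), and 45 to 462 in Atm-/- lymphomas, which were lower than the Rag2c/c p53-/- lymphomas by 2.60 (adjusted p = 0.00921). Dll4, the thymic epithelial ligand that acts on NOTCH1 in progenitors, had counts of 10 to 11 in WT thymus and 0 to 7 in Rag2c/c p53-/- lymphomas and fell by 1.84 (adjusted p = 0.0396). The worth of 3 reads was 9.69 in WT thymus 2 and 2.43 to 10.1 in Rag2c/c p53-/- lymphomas. The size of this fall thus depends on the added 1. Of 6 markers of thymic epithelium, Psmb11, Foxn1, Krt8 and Krt5 fell in Rag2c/c p53-/- lymphomas, beside 13.9% of all tested genes. Epcam and Ccl25 had log2 differences of 0.10 and 0.06 there. Psmb11 was at 36 to 122 in WT thymus and at 0 or 1 in all 10 lymphomas. The 6 markers summed to 725 to 1058 in WT thymus and spanned that range in Rag2c/c p53-/- lymphomas, at 287 to 1320. Among Atm-/- lymphomas the sum was lower, at 189 to 609, and 3 of the 6 fell, beside 17.0% of all tested genes. Dll4 had a log2 difference of -0.46 (adjusted p = 0.586) in Atm-/- lymphomas. Their part in the Dll4 level was not tested. The receptor gene Notch4 was low in all groups (15 to 36) and was not called.

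Among 15 genes of receptor glycosylation and cleavage, 4 fell in Atm-/- lymphomas, beside 17.0% of all tested genes, and 2 in Rag2c/c p53-/- lymphomas, beside 13.9%, which is near the share of all genes. Lfng, the fringe glycosyltransferase that sets how receptors respond to ligands, had counts of 1402 to 1628 in WT thymus, 139 to 870 in Atm-/- lymphomas (log2 difference -1.48, adjusted p = 0.03645) and 179 to 611 in Rag2c/c p53-/- lymphomas (-2.21, adjusted p = 0.00589). Furin, which makes the first cut of the receptor, fell in both (log2 differences -1.18 and -1.26, adjusted p = 0.00241 and 0.00201). In Atm-/- lymphomas Pofut1, the O-fucosyltransferase of the receptor, and Aph1b, a gamma-secretase subunit, fell (log2 differences -1.08 and -2.23, adjusted p = 0.00282 and 0.0126). Aph1b was scarce, at 32 to 75 in WT thymus and 5 to 22 in Atm-/- lymphomas, so the size of its fall depends on the added 1.

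Among 18 genes of the nuclear complex and its corepressors, 6 fell in Atm-/- lymphomas, beside 17.0% of all tested genes, and 3 in Rag2c/c p53-/- lymphomas, beside 13.9%. Maml2, a Mastermind-like coactivator, had counts of 1153 to 1279 in WT thymus and 54 to 207 in the 10 lymphomas, and fell in both models (log2 differences -3.46 and -3.98, adjusted p = 4.5e-05 and 2.8e-05). Tle4, a Groucho-family corepressor, fell in both as well (-4.08 and -3.40, adjusted p = 0.000157 and 0.00079). Tle1 of the same family fell by 2.95 in Atm-/- lymphomas (adjusted p = 0.00254), with counts of 17 to 169 against 292 to 351 in WT thymus and 244 to 734 in Rag2c/c p53-/- lymphomas, and the models differed by -3.53 (adjusted p = 0.001345). Differences nearer the threshold of 1 were called for Maml1, the acetyltransferase Crebbp and the demethylase Kdm5a in Atm-/- lymphomas (-1.11, -1.05 and -1.003) and for the acetyltransferase Kat2b in Rag2c/c p53-/- lymphomas (-1.21). Crebbp, Maml1 and Kdm5a also passed the adjusted p in Rag2c/c p53-/- lymphomas, with log2 differences of -0.99, -0.86 and -0.86 that missed the threshold (adjusted p = 0.000196, 0.0154 and 0.00767). Rbpj, the DNA-binding partner, was looked at after its values had been seen and had differences of -0.19 (adjusted p = 0.613) and -0.87 (adjusted p = 0.0339), neither of which reached the threshold of 1.

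Among 17 genes of receptor trafficking and turnover, the ubiquitin ligase gene Dtx3l fell in both models (log2 differences -1.23 and -1.58, adjusted p = 0.000243 and 6.5e-05), and Itch, another ligase of Notch, fell by 1.22 in Atm-/- lymphomas (adjusted p = 0.00176). Of 11 tested genes reported elsewhere as Notch targets in T cells, 5 were called in Atm-/- lymphomas, beside 29.5% of all tested genes, and 2 in Rag2c/c p53-/- lymphomas, beside 23.6%. Myc, the proto-oncogene, had counts of 2495 to 2985 in WT thymus and 5936 to 11860 in the 10 lymphomas and rose by 1.62 and 1.38 (adjusted p = 4.9e-05 and 0.000233). Cdkn1a, a cell cycle inhibitor and also a p53 target, rose by 2.18 and 2.03 (adjusted p = 0.000685 and 0.00148). Hey1, Nfkb2 and Igf1r fell in Atm-/- lymphomas (log2 differences -1.58, -1.48 and -1.08, adjusted p = 0.0227, 0.000215 and 0.0012). Hey1 was scarce, at 19 to 44 in WT thymus and 6 to 12 in Atm-/- lymphomas, so the size of its fall depends on the added 1. Igf1r was also lower in Atm-/- than in Rag2c/c p53-/- lymphomas, by 1.18 (adjusted p = 0.00108). Il7r, the interleukin 7 receptor of early thymocytes, was higher in Atm-/- than in Rag2c/c p53-/- lymphomas by 2.52 (adjusted p = 0.0114), with counts of 2860 to 7078 against 188 to 1967.

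**Figure D5:**
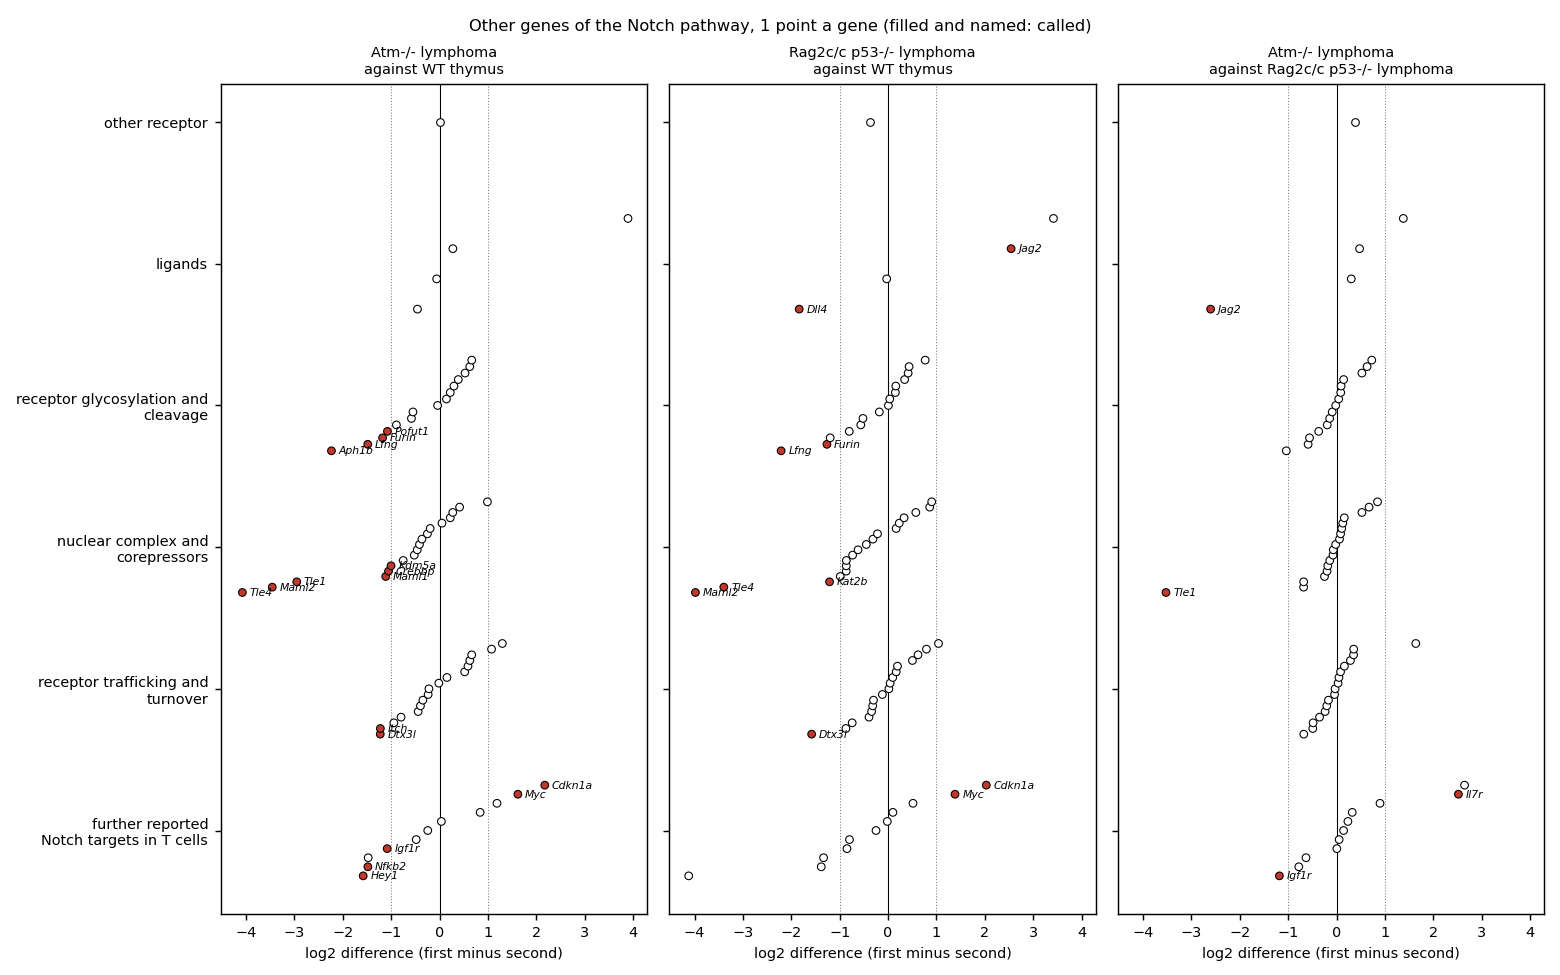
Log2 difference (x axes, log2(value + 1) scale, first group minus second) of each tested gene of 6 lists of the Notch pathway in the 3 comparisons; filled and named points were called, and dotted lines mark 1 log2 unit either way. Most named genes lie left of 0 in the comparisons with WT thymus, with Maml2 and Tle4 farthest, and Myc and Cdkn1a lie to the right in both.

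Genes of thymocyte stages moved with these groups as well. Of all tested genes 17.0% fell in Atm-/- lymphomas, and 13.9% fell in the Rag2c/c p53-/- model. Of 10 genes of the CD4-CD8- stage, which include Hes1 and Ptcra, 5 fell in Atm-/- lymphomas and 3 in Rag2c/c p53-/- lymphomas, and 1 of the 3 was Rag2, the gene altered in those mice. Of 10 genes of the CD4+CD8+ stage, 8 and 5 fell, with Rag1 counted in both lists, and of 8 genes of the single positive stage, 4 and 6 fell. WT thymus mixes these stages, and a difference in stage cannot be told apart from the other differences between lymphoma and thymus.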

How the data were processed

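RNA of 13 libraries was analysed. Per the labels, reads were processed with bcl2fastq 1.8.3, STAR 2.4.0g1, Picard and DESeq2 1.6.3 on mm10 (GRCm38). The methods of the paper, given for the WT thymuses and its own tumors, name Ensembl annotation, removal of duplicates and HTSeq-count on uniquely mapped reads; the strand setting of the counting is not given in the sources used here. The deposited values are scores, counts divided by size factors and rounded by the authors to whole numbers, so whole reads were not recovered and no count test was run. The table also holds group means and the authors' comparisons (fold changes, p-values), which were not used. A label field names the thymuses as lymphoma; their titles and tissue label say thymus.

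Differences between the 3 groups were estimated on log2(value + 1) by limma (version 3.58.1, R 4.3.3), with trend and robust moderation, over genes reaching 10 in 3 or more libraries. Single values were tested by exact permutation, and the test between groups was checked against scipy on random numbers. The tests were checked on simulated data. Exon lengths came from GENCODE vM21. The replicates of a group are different mice. The 10 genes and all lists were chosen with earlier results of these data known. Named besides the 10 were called genes of the pathway lists (up to 8 a list), the gene of highest mean where a list had none, the 3 genes most like Notch1, Notch3 and Hes1, genes overlapping the 10 with a mean of at least 10, and the genes altered in the mice. Alternatives covered pseudocount, filter, scaling, moderation, groups in the fit, fold threshold and each library left out. A marker gene was left out of a cell type list and is not reported here.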

Additional observations from a re-analysis of the deposited data

Results flagged for a closer look

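In 24 groups of 5 lymphomas (10 genes and 2 ratios in 2 models), a library was taken as far from the others when its gap to the nearest exceeded 0.71 of the range on the log2 scale, which chance alone gives in about 1 group in 20. This held for 3 values. Notch2 was 236 in Rag2c/c p53-/- lymphoma 2, the lowest of its model and the shallowest library, against 682 to 924 in the others. Without that library Notch2 still fell in the Rag2c/c p53-/- lymphomas, by 1.25 on the log2 scale (limma adjusted p = 0.00201). Fbxw7 was 1404 in Atm-/- lymphoma 2, against 808 to 869 in the other Atm-/- lymphomas, and this library also had the highest Notch1 count. The log2 ratio of Notch3 to Notch1 was -4.78 in Rag2c/c p53-/- lymphoma 3, against -2.95 to -2.30 in the other Rag2c/c p53-/- lymphomas. That lymphoma had the highest Notch1 and the lowest Notch3 count of its model.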

How the results depend on the processing

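No paired analysis was possible because the lymphomas and thymuses came from different mice. In all alternatives but leaving out a library, counts of called genes among the 10 were 2 or 3 (Atm-/- against WT), 2 to 4 (Rag2c/c p53-/- against WT) and 0 (between models). With no minimum on the log2 difference, 29, 22 and 9 pathway genes were called in these comparisons, against 17, 10 and 4. By Spearman's rho 0 receptor-target pairs passed, against 2, and the correlation of Notch2 with Nrarp was -0.152 against 0.132. Without both shallowest libraries, an alternative chosen after seeing the data, the Nrarp difference between the models was -0.0619, and the fall of Hes5 in Rag2c/c p53-/- lymphomas was no longer called. Without Atm-/- lymphomas 3 and 5, also chosen after seeing the data, 0 pairs passed, and the r of Notch3 was -0.0933 with Hes5 and -0.0300 with Heyl. Hes5 fell out of the fit when at least 50 in 3 libraries was asked for, and with 5 added in place of 1 its fall was 2.07 (adjusted p = 0.0493).

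Leaving out 1 library at a time, the counts among the 10 were 1 to 2, 2 to 3 and 0 to 1, those of pathway genes 11 to 18, 9 to 12 and 4 to 5, and 0 to 5 receptor-target pairs passed. The log2 differences that changed sign were not called in any of these settings. Between the models they were -0.16 to 0.73 for Notch1, -0.28 to 0.72 for Notch3, -0.37 to 1.34 for Dtx1, -0.22 to 0.78 for Nrarp, -0.255 to 1.20 for Ptcra and -0.198 to 0.0247 for Fbxw7. Against WT thymus they were -0.84 to 0.16 for Notch3 and -0.84 to 0.61 for Ptcra in Atm-/- lymphomas, and -0.0573 to 0.884 for Dtx1 in Rag2c/c p53-/- lymphomas. The mean log2 ratio to Notch1 differed between the models by -0.49 to 0.13 for Notch3 and -0.33 to 0.70 for Notch2. The r of Notch2 was -0.185 to 0.497 with Hes5, -0.108 to 0.389 with Heyl, -0.233 to 0.0493 with Dtx1 and -0.241 to 0.313 with Nrarp. The causes of these changes were not tested. A single read was worth more than 3 normalized counts in the shallowest libraries, which limits Hes5 most.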
